A study of Homo sapiens with 9 samples.

Results

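SNORD113, SNORD114, SNORD115 and SNORD116 are families of small nucleolar RNAs (snoRNAs) that lie as tandem copies in the imprinted domains of chromosome bands 14q32 (SNORD113 and SNORD114) and 15q11 (SNORD115 and SNORD116). The members were the rows of the deposited expression table whose gene name begins with one of these 4 names. They came to 122 of 60829 rows, with 9 SNORD113, 30 SNORD114, 50 SNORD115 and 33 SNORD116 rows. Total RNA depleted of ribosomal RNA was sequenced from H1, a widely used human embryonic stem cell line, grown in mTeSR medium on vitronectin. The knockout clone carries a knockout on chromosome X of an element that the study calls HERVHlin, and it gave 5 libraries. The control clone is labelled wild type and gave 4 libraries. The libraries of a clone are sequential passages of that 1 clone, which the study treated like technical replicates, so the p-values speak only of variation among passages of a single clone of each genotype. All 9 libraries also carry the label "differentiated cells", which the growth medium and the level of the pluripotency marker POU5F1, given further on, do not match.

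Box C/D snoRNAs carry a C box near their start and a D box near their end, are bound by a set of core proteins, and mostly guide the methylation of ribose in ribosomal RNA by base pairing. The families described here are known as orphan snoRNAs, since most of their copies match no ribosomal RNA. They are cut from the introns of long noncoding host transcripts, SNHG14 at 15q11, expressed from the paternal allele, and MEG8 and its neighbours at 14q32, expressed from the maternal allele. Loss of the paternal SNORD116 copies is associated with Prader-Willi syndrome, and SNORD115 is best known in brain, where it has a stretch complementary to the messenger RNA of the serotonin receptor HTR2C.

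The sequences that follow are shown because the values turn on these copies, and because near-identical copies share values. All are GENCODE 29 transcripts on the plus strand of GRCh38, written 5′ to 3′. SNORD116-11 (chr15:25075929-25076020), SNORD116-18 (chr15:25085385-25085476) and SNORD116-8 (chr15:25070432-25070526) were the members above 0 in all 9 libraries. SNORD116-3 (chr15:25056860-25056954) has the same sequence as SNORD116-9, and SNORD114-20 (chr14:100981004-100981075) held the highest 14q32 value. In these 5, capitals mark the C box TGATGA and the D box CTGA.
SNORD116-11: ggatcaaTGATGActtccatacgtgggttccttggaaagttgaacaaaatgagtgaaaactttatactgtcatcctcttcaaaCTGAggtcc
SNORD116-18: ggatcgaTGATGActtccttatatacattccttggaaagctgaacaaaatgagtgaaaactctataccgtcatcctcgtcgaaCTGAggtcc
SNORD116-8: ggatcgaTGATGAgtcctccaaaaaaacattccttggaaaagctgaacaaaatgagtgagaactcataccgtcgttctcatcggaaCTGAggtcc
SNORD116-3: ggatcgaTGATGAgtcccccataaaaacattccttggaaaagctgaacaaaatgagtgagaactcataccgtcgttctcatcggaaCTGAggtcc
SNORD114-20: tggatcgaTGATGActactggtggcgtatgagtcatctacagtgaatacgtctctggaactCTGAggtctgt

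Among SNORD115 copies, SNORD115-33 (chr15:25230838-25230919) holds the 18 bases complementary to HTR2C, which stand in capitals. SNORD115-37 (chr15:25237986-25238067) and SNORD115-17 (chr15:25201323-25201404) hold no such stretch of 18 bases and carry no capitals.
SNORD115-33: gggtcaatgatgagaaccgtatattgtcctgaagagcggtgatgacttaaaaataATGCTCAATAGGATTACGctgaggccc
SNORD115-37: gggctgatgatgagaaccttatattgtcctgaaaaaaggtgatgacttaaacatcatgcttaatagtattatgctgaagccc
SNORD115-17: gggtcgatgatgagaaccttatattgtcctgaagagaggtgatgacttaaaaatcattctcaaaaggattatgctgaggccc
Counted from 1 at the 5′ end, SNORD115-33 and SNORD115-17 differ by A6G, G19T, C37A, A55C, G58T, T64A and C72T. A stretch of at least 18 bases complementary to HTR2C was present in 29 of the 50 SNORD115 rows, 10 of which were above 0 in some library, and in 0 rows of the other families, whose longest stretches were 10 or 11 bases.

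TGATGA in the first 20 bases together with CTGA in the last 20 bases of the transcript strand was found in 8 of 9 SNORD113, 20 of 30 SNORD114, 40 of 50 SNORD115 and 28 of 33 SNORD116 rows. The pair of motifs was present in 100 of 186 other rows named SNORD with a sequence (53.76%) and in 0 of 211 rows named SNORA, the box H/ACA snoRNAs. These are matches of letters on 1 strand only, and no overlap between the motifs is possible.

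Most copies are nearly the same as another copy. The nearest copy of the same length and family differed at a median of 1 base for SNORD115 and 3 bases for SNORD116, against 8 bases for SNORD113 and for SNORD114. Of the members, 15 had a row of identical sequence, and these rows carried identical values in every library. Some of them, such as SNORD115-9 with SNORD115-12, were at 0 throughout, where equal values mean little. Those above 0 included SNORD116-3 with SNORD116-9, and SNORD115-17 with SNORD115-18 and SNORD115-19. In 28 rows no stretch of 31 bases was particular to the row, and 10 of these were above 0. The values of such copies are uncertain, since a read from one can be assigned to another.

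The deposited values are normalized counts, that is, counts divided by 1 size factor per library. Divided by the lowest nonzero value of their library, 100% of them came out whole. In rows as short as snoRNAs those whole numbers did not move in single units. Non-member rows of 82 nucleotides, the length of most SNORD115 copies, took values at multiples of a step of 38.8 to 60.7 normalized counts in the knockout libraries and 52.7 to 67.5 normalized counts in the control libraries, whereas 1000-nucleotide rows had 1 as their most frequent whole number above 0. The sources used here do not give how many fragments a step stands for. A snoRNA at 50 normalized counts was thus at about 1 step. Lower values occurred, down to 0.167 steps in SNORD116-1 in knockout 4. Differences between the clones are given here within a row or within a sum over the same rows. Rankings by mean, sums and percentages mix rows of unlike length, so they do not compare amounts of RNA between rows.

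Of the 122 members, 42 were above 0 in at least 1 library and 80 were listed at 0 in all 9. The 42 comprised 1 SNORD113, 4 SNORD114, 22 SNORD115 and 15 SNORD116 rows. The 122 rows hold 113 distinct sequences, of which 36 were above 0. Counting each sequence once, 10 were above 0 in knockout libraries only and 5 in control libraries only, with 5 knockout and 4 control libraries to be seen in, and 12 were above 0 in a single library. Among the members, 10, SNORD116-4 and SNORD115-7 included, lie whole inside a longer transcript such as SNHG14, and 0 of these 10 were above 0, against 42 of the remaining 112. A listing at 0 is not evidence of absence in this table. Of the 192 other rows named SNORD, 78 were also at 0 in all libraries, including SNORD48, a broadly expressed snoRNA.

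Expressed in steps of their row length, with rows of identical sequence summed, the 32 SNORD115 values above 0 of rows with an estimated step all lay within 0.06 of a whole number, and 25 of the 32 were at 1 step. The highest was 4.01 steps, and the 4 values of a 59-nucleotide SNORD115 row are left out, as no step could be estimated in their libraries. SNORD113 had 1 value of 1.01 steps, and the 4 values of SNORD114 totalled 6.01 steps. SNORD116 was better sampled, with 81 values totalling 310.7 steps and a highest value of 21.1 steps. Of these, 23 lay within 0.06 of a whole number. Summed per library, SNORD116 held 77.4, 41.3, 24.2, 16.7 and 32.6 steps in knockout libraries 1 to 5, against 62.8, 15.01, 28.1 and 12.7 steps in control libraries 1 to 4.

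**Figure D1:**
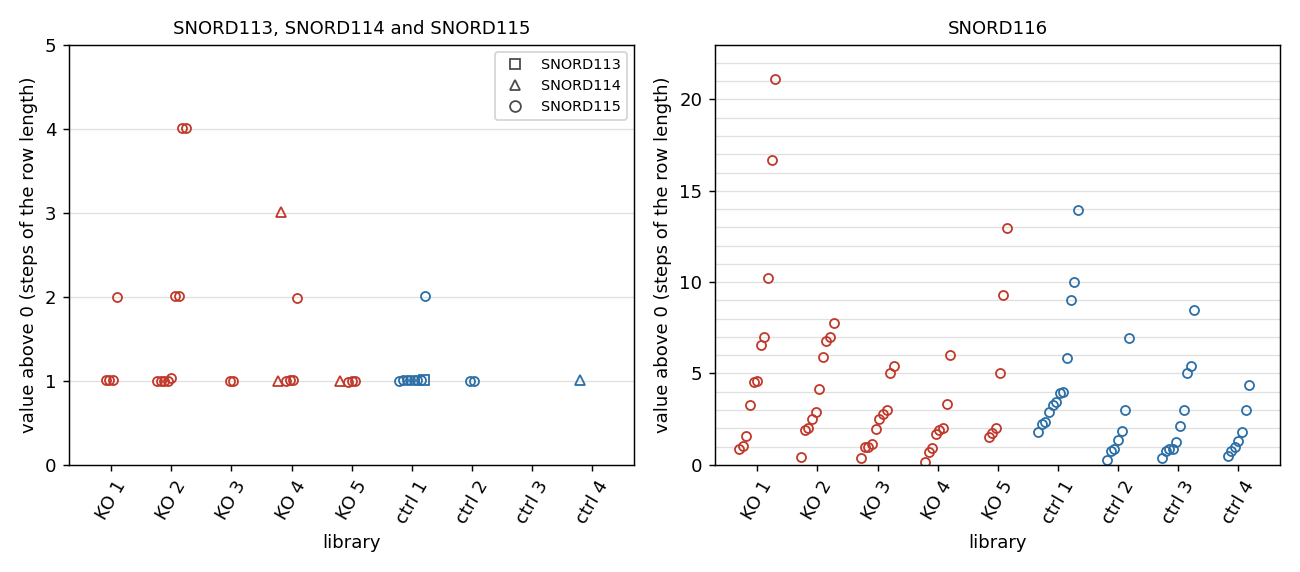
Values above 0 of SNORD113, SNORD114 and SNORD115 (left) and SNORD116 (right) in each library, in steps of the row length, with the knockout libraries (red, KO) before the control libraries (blue, ctrl). Each point is 1 sequence, rows of identical sequence being summed, and the points at left sit on whole numbers with a highest value of 4.01 steps, while SNORD116 reaches 21.1 steps.

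After the filter on low counts, 16 members were tested, 5 SNORD115 and 11 SNORD116 rows, and none of the 14q32 rows. By limma on log2(value + 1) with Benjamini-Hochberg adjustment over all 27777 tested rows, 0 of the 16 passed an adjusted p of 0.05, where 0.54% of all tested rows did. The smallest adjusted p was 0.527. At an unadjusted p under 0.05 limma gave 1 member, SNORD116-10, against 8.63% of all tested rows. With a pseudocount of 50 in place of 1, limma called 0 of 16 (0.637% of all tested rows). The edgeR quasi-likelihood test called 0 of 16 (0.544% of all tested rows), with 0 at an unadjusted p under 0.05 (7.9% of all tested rows). DESeq2 called 0 of the 22 members with an adjusted p (2.05% of all rows with one). At an unadjusted p under 0.05 it gave 3 of 26 fitted members, SNORD115-22, SNORD115-27 and the chromosome 10 row ENSG00000212411.1, each at 0 in all control libraries and above 0 in 2 knockout libraries, where 7.65% of all fitted rows passed. The authors' deposited table likewise has 22 members with an adjusted p, the smallest 0.400. The clones' libraries overlapped for all 16 members, while they did not overlap for 3.95% of all tested rows.

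The 16 tested rows hold 13 distinct sequences. Counted once each, these had a median log2 fold change of -0.13, with 6 positive and 7 negative values between -3.54 and 3.69, beside a median of 0.01 over all tested rows. Counted as 16 rows, the median was 0.52, with 9 positive and 7 negative values. The median standard error of the 16 rows was 1.65 on the log2 scale, against 0.31 over all tested rows, so differences of several fold in most members could not be detected with these libraries. Of the other rows named SNORD, 92 were tested and 0 called, with a median log2 fold change of -0.13. Of the SNORA rows, 118 were tested and 0 called, with a median of -0.12.

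At 14q32 (members between chr14:100924824 and chr14:100993310), 5 of 39 members were above 0, each in 1 library. SNORD114-20 had 0, 0, 0, 135 and 0 normalized counts in the knockout libraries and 0 in all 4 control libraries. Its one value equals 3 steps of its 72-nucleotide length. SNORD114-2 had 46.4 normalized counts in knockout 5 and 0 in the other libraries of both clones, and SNORD114-15 had 44.8 in knockout 4 and 0 elsewhere.

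SNORD114-3 had 0 normalized counts in all 5 knockout libraries and 0, 0, 0 and 52.4 in the control libraries, and SNORD113-9 had 0 in all knockout libraries and 54.2 in control 1 alone. The authors' deposited table gives these rows log2 fold changes of 20.87 for SNORD114-20, 5.55 for SNORD114-2, 5.50 for SNORD114-15, -6.26 for SNORD114-3 and -6.31 for SNORD113-9, all without an adjusted p. Each of these folds is set by a value of 1 to 3 steps in 1 library against 0. The summed SNORD113 and SNORD114 rows had 0, 0, 0, 180 and 46.4 normalized counts in the knockout libraries, against 54.2, 0, 0 and 52.4 in the control libraries. The sum was above 0 in 2 libraries of each clone, its ratio of means was 0.77 on the log2 scale, and without knockout 4 that ratio was -1.20.

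The other 14q32 genes stood at low values or at 0. MEG8, a maternally expressed noncoding RNA, had 32.6, 27.1, 45.4, 38.9 and 36.1 normalized counts in the knockout libraries, against 24.4, 43.5, 10.9 and 39.7 in the control libraries, and the groups overlapped (log2 fold change 0.42, SE 0.39, adjusted p = 0.805 by limma). DLK1, a paternally expressed Notch ligand relative of the domain, had 10.5, 44.0, 32.6, 23.9 and 41.3 in the knockout libraries, against 8.50, 7.77, 10.9 and 14.5 in the control libraries. Its log2 fold change of 1.35 (SE 0.44) had a limma adjusted p of 0.346. MEG3, the main maternal noncoding RNA of the domain, stood at 0.958 to 5.16 normalized counts in the knockout libraries and 0 to 1.81 in the control libraries. MEG9, DIO3 and DIO3OS reached at most 4.25 in any library, and RTL1, SNORD112 and all 49 listed microRNA genes of the domain were at 0 throughout. Of the 7 domain genes, 2 were tested and 0 called.

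SNORD116 was the only family with rows above 0 in all 9 libraries. Its numbered copies run from chr15:25051477 to chr15:25108352, and 3 further rows carrying the bare name lie on chromosomes 1, 9 and 13, of which the chromosome 9 row was above 0. By position in the array, 5 of the copies 1 to 9, 8 of the copies 10 to 24 and 1 of the copies 25 to 30 were above 0 in some library. Copies 10 to 24 together held 2103, 1263, 1068, 549 and 1473 normalized counts in the knockout libraries, against 2246, 825, 1049 and 627 in the control libraries.

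SNORD116-11 had the highest mean of all members, at 810, 368, 319, 277 and 667 normalized counts in the knockout libraries against 609, 185, 306 and 177 in the control libraries. The groups overlapped, with means of 488 ± 237 (SD, n = 5) in the knockout clone and 319 ± 202 (SD, n = 4) in the control clone. The log2 fold change of 0.67 had an SE of 0.44 and a limma adjusted p of 0.736. SNORD116-18 followed at 640, 406, 190, 153 and 478 normalized counts in the knockout libraries, against 548, 427, 330 and 257 in the control libraries, with a log2 fold change of -0.21 (SE 0.43, limma adjusted p = 0.902). The knockout libraries of SNORD116-18 spread more widely (SD 203) than its control libraries (SD 126), and their range covered that of the control libraries.

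SNORD116-8 had 238, 129, 161, 74.7 and 89.2 normalized counts in the knockout libraries against 201, 85.5, 75.7 and 70.4 in the control libraries, with control 1 well above the other control libraries (log2 fold change 0.37, SE 0.40, limma adjusted p = 0.824). In all 4 same-numbered pairs of libraries the knockout library was higher for SNORD116-11 and for SNORD116-8, and in 1 of 4 pairs for SNORD116-18. With the replicate number as a block, the limma adjusted p was 0.393 for SNORD116-11 and 0.458 for SNORD116-8, so neither passed.

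SNORD116-3 and its identical row SNORD116-9 each had 185, 176, 88.5, 20.9 and 0 normalized counts in the knockout libraries and 425, 0, 259 and 0 in the control libraries. On log2(value + 1) their fold change was 1.00 (SE 2.27, limma adjusted p = 0.909), although the mean was 94.0 in the knockout clone and 171 in the control clone, and with a pseudocount of 50 it was -0.19.

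The largest differences of either sign belonged to copies with libraries at 0. SNORD116-10 had 241, 99.2, 66.4, 87.4 and 249 normalized counts in the knockout libraries against 0, 0, 178 and 55.1 in the control libraries. It was above 0 in all knockout libraries and in 2 of 4 control libraries (log2 fold change 3.69, SE 1.51, limma adjusted p = 0.527). SNORD116-23 had 176, 151, 0, 0 and 0 in the knockout libraries and 239, 45.1, 52.0 and 107 in the control libraries, so that it was at 0 in 3 knockout libraries and in no control library (log2 fold change -3.54, SE 1.80, limma adjusted p = 0.648). With a pseudocount of 50 the log2 fold changes were 1.06 for SNORD116-10 and -0.70 for SNORD116-23, by edgeR 1.44 and -0.74 and by DESeq2 1.35 and -0.76. With 1 library left out and a pseudocount of 1, they ran from 2.59 (without control 1 or 2) to 5.08 (without control 3) for SNORD116-10 and from -4.67 (without knockout 1) to -2.80 (without knockout 3, 4 or 5) for SNORD116-23. The 2 copies lie in the same array of 1 host transcript and differ in sign.

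**Figure D2:**
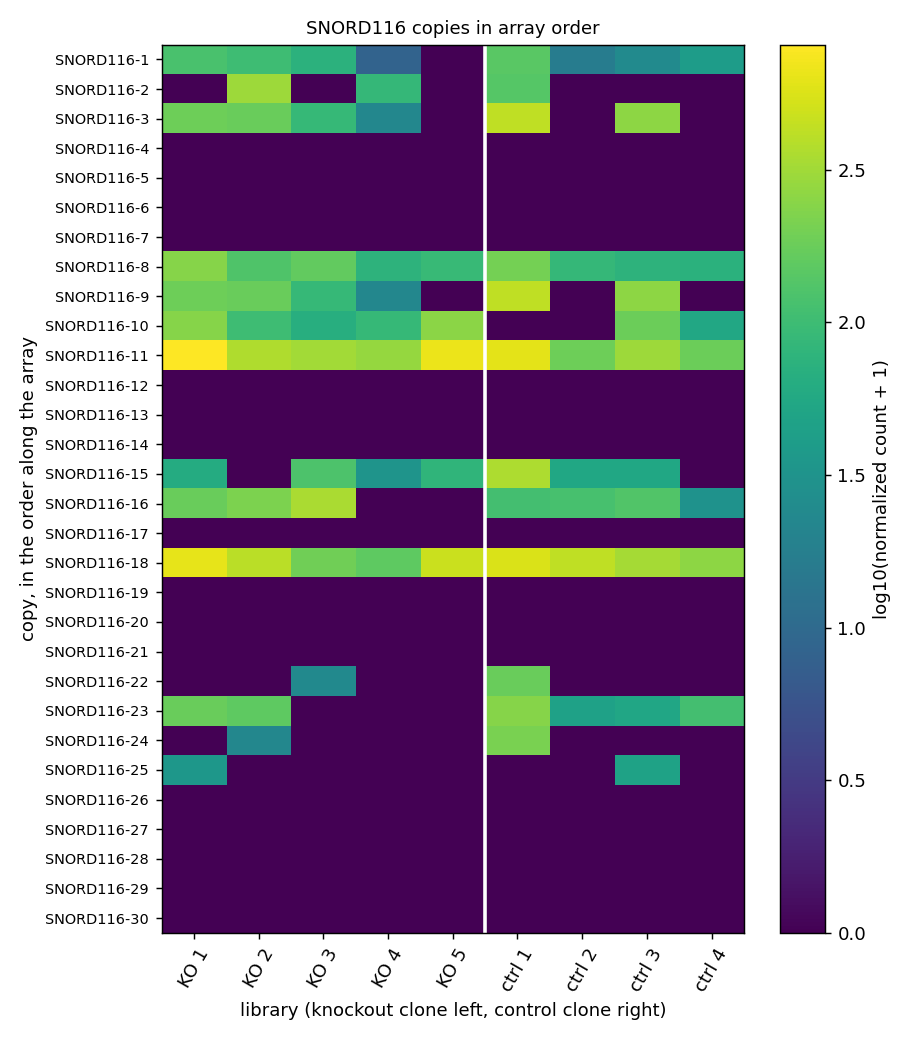
Normalized counts of the numbered SNORD116 copies (rows, in array order) in the 5 knockout libraries (KO, left of the white line) and the 4 control libraries (ctrl, right), on a log10(value + 1) colour scale. SNORD116-8, SNORD116-11 and SNORD116-18 are above 0 in all libraries, and only 1 of the copies 25 to 30 is above 0.

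Summed over its 33 rows, SNORD116 came to 2902, 2148, 1546, 758 and 1655 normalized counts in the knockout libraries, against 3834, 926, 1713 and 737 in the control libraries. Of the 33 rows, 30 lie in the 15q11 cluster. The sum also takes in the chromosome 9 row, at 39.3, 0, 67.5, 0 and 92.9 in the knockout libraries and 255, 0, 0 and 0 in the control libraries. The mean was 1802 ± 792 in the knockout clone (SD, n = 5) and 1802 ± 1419 in the control clone (SD, n = 4). The highest and the lowest library both belonged to the control clone. Without control 1 the log2 ratio of the means was 0.68, in place of -0.00054 with all libraries. As a share of all other SNORD rows, the sum was 2.99, 2.11, 1.62, 1.07 and 2.41% in the knockout libraries and 3.22, 0.628, 1.95 and 0.613% in the control libraries, and those ranges overlapped too. In bulk RNA, fewer cells that hold a transcript and less of it per cell cannot be told apart.

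SNORD115-1 to SNORD115-48 lie between chr15:25170723 and chr15:25269858. A row with the bare name SNORD115 (ENSG00000212428.1, chr15:25159221-25159279, 59 nucleotides) had the highest mean of the family. It held 0, 100, 0, 0 and 276 normalized counts in the knockout libraries and 35.1, 0, 0 and 143 in the control libraries, so it was above 0 in 2 libraries of each clone (log2 fold change -0.13, SE 2.25, limma adjusted p = 0.989). SNORD115-37 had 210 normalized counts in knockout 2 and 60.6 in control 1, and 0 in the other 7 libraries. SNORD115-33, which carries the HTR2C stretch, had 0, 0, 60.6, 47.8 and 0 in the knockout libraries and 121, 0, 0 and 0 in the control libraries.

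SNORD115-32 had 0, 105, 60.6, 0 and 0 normalized counts in the knockout libraries and 60.6, 0, 0 and 0 in the control libraries. SNORD115-23 had 39.3, 51.9, 0, 0 and 0 in the knockout libraries and 60.6, 52.8, 0 and 0 in the control libraries, a log2 fold change of -0.71 (SE 1.87, limma adjusted p = 0.920). Most of these values are 1 step of the row length in that library. The identical rows SNORD115-17, SNORD115-18 and SNORD115-19, singled out after their values were seen, each had 25.9, 69.9, 0, 31.4 and 16.2 in the knockout libraries and 20.2, 0, 0 and 0 in the control libraries. They were above 0 in 4 of 5 knockout libraries and in 1 of 4 control libraries (log2 fold change 2.90, SE 1.37, adjusted p = 0.610 by limma). The 3 rows hold 1 sequence, so their equal values are not 3 independent measurements. In steps, each row held 0.666, 1.34, 0.660 and 0.329 in knockout 1, 2, 4 and 5 and 0.335 in control 1. Only summed over the 3 rows did these lie near whole numbers.

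The summed SNORD115 rows had 195, 985, 121, 237 and 422 normalized counts in the knockout libraries, against 579, 106, 0 and 143 in the control libraries. The sum takes in the 59-nucleotide row, which gave all of control 4 and 276 of the counts in knockout 5. It also takes in the chromosome 10 row, which had 98.1 in knockout 2, 47.1 in knockout 4 and 0 in all control libraries. Knockout 2 and control 1 were the highest of their clones. The means were 392.1 ± 350 (SD, n = 5) in the knockout clone and 207 ± 255 (SD, n = 4) in the control clone, a log2 ratio of 0.92. Without control 1 it was 2.24 and without knockout 2 it was 0.24.

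**Figure D3:**
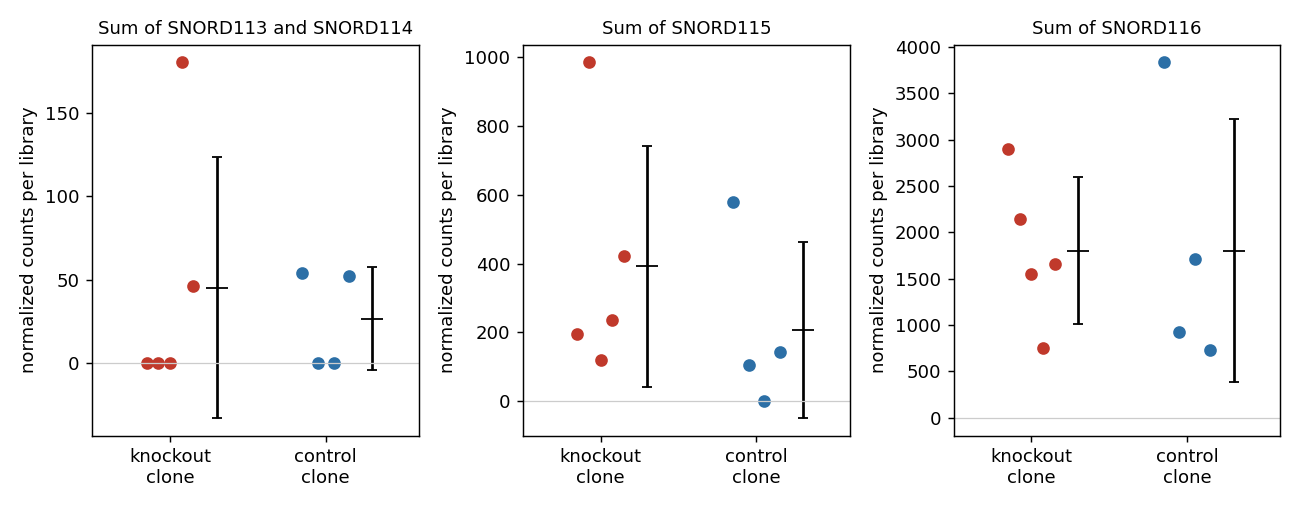
Summed normalized counts per library of SNORD113 with SNORD114 (left), SNORD115 (middle) and SNORD116 (right), with 1 point per library of the knockout clone (red, n = 5) and the control clone (blue, n = 4) and the mean ± SD beside them in black. The clones overlap in all 3 sums, and the SNORD116 means are 1802 in both.

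Among the host and neighbouring genes of 15q11 there was no call, and SNHG14 and SNRPN were the highest. SNHG14, the host of SNORD115 and SNORD116, had 10602, 10432, 11770, 11139 and 13281 normalized counts in the knockout libraries against 11945, 13144, 13423 and 13584 in the control libraries. It differed by -0.19 on the log2 scale (SE 0.15, limma adjusted p = 0.781), or by 0.12 under quantile normalization. SNRPN, which encodes a core protein of spliceosomal particles, had a log2 fold change of -0.24 (SE 0.26, limma adjusted p = 0.820; 0.10 under quantile normalization), and SNURF, which is read from the start of the same transcript, one of 0.21 (SE 0.29, limma adjusted p = 0.859; -0.0036 without control 2).

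The intronless gene NDN stood at -0.13 (SE 0.28) and UBE3A, a ubiquitin ligase gene that SNHG14 overlaps in antisense, at 0.04 (SE 0.17), with limma adjusted p-values of 0.904 and 0.954. The sign of NDN and of UBE3A changed when single libraries were left out. Of the 23 genes listed for the domain, 18 had a row, 10 were tested and 0 were called, with a median log2 fold change of 0.09. The other snoRNAs listed for the domain, SNORD64, SNORD107, SNORD108, SNORD109A and SNORD109B, were at 0 in all libraries.

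**Figure D4:**
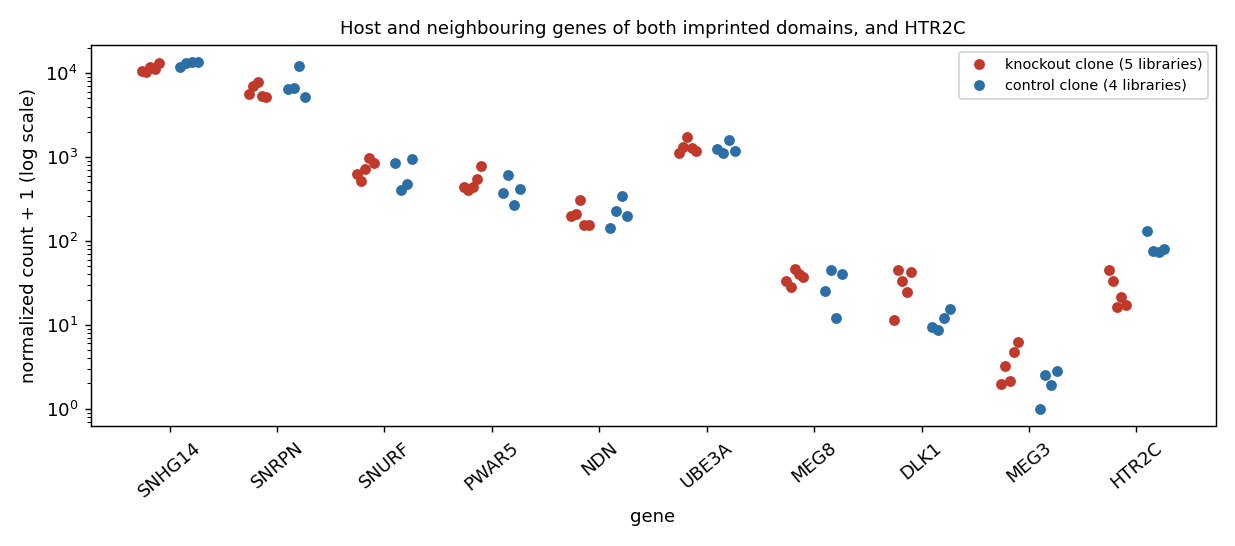
Normalized counts plus 1, on a log axis, of host and neighbouring genes of the 15q11 and 14q32 domains and of HTR2C in the knockout clone (red, left of each pair, 5 libraries) and the control clone (blue, right, 4 libraries). SNHG14 lies between 10432 and 13584 normalized counts in all libraries, the 14q32 genes lie below 50, and HTR2C is the only gene shown whose clones do not overlap.

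HTR2C had 44.1, 32.7, 15.1, 20.2 and 16.2 normalized counts in the knockout libraries against 132, 74.6, 72.9 and 79.5 in the control libraries, with no overlap. The log2 fold change was -1.84 (SE 0.35) and missed the threshold by limma (adjusted p = 0.0668). It passed by limma with a pseudocount of 50 (adjusted p = 0.0469), by DESeq2 (adjusted p = 0.000307) and by limma without knockout 1 (adjusted p = 0.0379). By edgeR it did not pass (adjusted p = 0.104). The part of SNORD115 in this difference was not tested, nor was that of the knocked-out element.

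The core proteins of box C/D particles were tested as 4 genes, of which 0 were called, with a median log2 fold change of -0.23. FBL, the methyltransferase fibrillarin, had the largest difference at -0.46 (SE 0.25, limma adjusted p = 0.663). NOP56 was at -0.28, NOP58 at -0.08 (0.12 under quantile normalization) and SNU13 at -0.17 (0.018 under quantile normalization).

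The libraries held 21434888 to 31192630 whole-number counts in the knockout clone and 19838682 to 30388797 in the control clone, of which the members took 0.00305 to 0.0177%. Protein-coding rows took 26.3 to 47.5% of the counts in the knockout libraries and 27.5 to 50.8% in the control libraries. All 10 pluripotency markers were tested and 0 were called, and POU5F1, a defining factor of pluripotent cells, had 6572 to 9936 normalized counts in the knockout libraries and 6616 to 16354 in the control libraries. The 10 neural markers summed to 724 to 962 normalized counts in the knockout libraries and 630 to 1023 in the control libraries. The 7 fibroblast markers summed to 955 to 1462 in the knockout libraries and 1094 to 1792 in the control libraries. Levels differed widely within each list. RBFOX3 ran from 260 to 502 and COL1A2 from 487 to 802 normalized counts over all libraries. SOX1 reached at most 1.16 and LUM at most 1.82, and NEUROG2 was above 0 only in control 3 (0.912). No marker was at 0 in all libraries. Of the neural and fibroblast markers, 5 neural and 4 fibroblast markers were tested and 0 were called. The pluripotency markers had log2 fold changes from -0.92 to 0.01, with a median of -0.39. An unadjusted limma p under 0.05 was reached by 1 pluripotency marker (TDGF1, log2 fold change -0.92) and 1 neural marker (MAP2, 0.58). It was also reached by 2 fibroblast markers (COL1A1, -0.78, and PDGFRB, -0.72), and by 8.63% of all tested rows. The part of these levels in the snoRNA values was not tested.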

How the data were processed

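The 9 libraries, 5 knockout and 4 control, were made from total RNA depleted of ribosomal RNA with a kit that keeps the strand, per the labels' protocols. The tools fastp, kallisto and DESeq2 and the build hg38 are named, with no role or version, per the submitters' processing notes. The deposited signal columns hold 1 normalized count per row and library. Beside them the authors deposited a mean signal, a log2 fold change and its error, a test score and a p-value with its adjustment. Of these the text gives the log2 fold change and the adjusted p. Division by the smallest value above 0 of a library gave whole numbers for 100% of values (tolerance 1e-06). As these whole numbers run in length-dependent steps in short rows, they are not called reads and no limit from a count of 0 is given. Steps were estimated from rows that are not members, from at least 3 rows per length and library, and a value was called whole within 0.06 steps.

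The design planned limma for normalized values. The fit was made by limma version 3.58.1 in R 4.3.3, with its trend option, on log2(value + 1) of the 27777 rows kept by filterByExpr with a minimum count of 10, and its only term was the clone. Adjustment followed Benjamini and Hochberg, and the threshold was 0.05. Fold changes are on the log2(value + 1) scale, which understates the change of low rows without zeros. In rows with libraries at 0 they depend on the pseudocount and can exceed those of the count tests. The edgeR quasi-likelihood test (version 4.0.16) and DESeq2 (version 1.42.0) on the whole numbers, other pseudocounts, scalings and filters, leaving out each library and the replicate block were alternatives, and a pseudocount of 50, about 1 step, was chosen after seeing the data. The limma and edgeR fits were tested on simulated counts without length-dependent steps, with changes set only in rows with a mean count of at least 50. That test does not speak for rows in steps or mostly at 0, as many members are. Family sums were described without a test.

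Replicate numbers stand under a batch tag in the labels, which may pair same-numbered libraries. The fit behind the printed fold changes holds no such term, and a replicate block was added only in an alternative. Within pairs 1 to 4, the deviations from the mean of the clone had correlations of 0.067, 0.023, 0.252 and 0.325, and knockout 5 has no partner.

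Sequences and positions came from GENCODE 29 (GRCh38) and were matched by Ensembl ID for all 122 members. The members and all lists were chosen with earlier results of these data known. Members named with values are the 5 of each family with the highest mean over all libraries, if above 0, and the tested members with the largest positive and negative log2 fold change of each cluster. None was called, so the rule added no further member, and SNORD115-17, SNORD115-18 and SNORD115-19 were named outside it.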

Additional observations from a re-analysis of the deposited data

Results flagged for a closer look

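The 37 members, sums and neighbouring genes were looked at in both clones. In 14 groups of libraries, the highest or lowest library stood far from the others by Dixon's criterion at the 95% level. That level marks about 1 in 20 groups only where values spread normally, and a group with 1 library above 0 is always marked. In 9 of the 14 groups, the other libraries of the clone were all at 0, so their marking was fixed in advance. They are SNORD113-9 in control 1 (54.19 normalized counts), SNORD114-2 in knockout 5 (46.44), SNORD114-3 in control 4 (52.38), SNORD114-15 in knockout 4 (44.84), SNORD114-20 in knockout 4 (135.3), SNORD115-32 in control 1 (60.56), SNORD115-33 in control 1 (121.1), and SNORD115-37 in knockout 2 (209.7) and in control 1 (60.56). These values are 1 to 4 steps of the row length.

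The summed SNORD113 and SNORD114 rows stood out in knockout 4 at 180.1 normalized counts, and SNORD116-8 in control 1 at 200.8. Among the other genes, FBL (8747) and SNU13 (2150) stood out in control 3, where protein-coding rows took most of the counts (50.8%), and HTR2C in control 1 (131.8). The part of the protein-coding share in the FBL and SNU13 values was not tested.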

How the results depend on the processing

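No member was called under any alternative run, and the smallest adjusted p among members ran from 0.261 (limma without control 3) to 0.831 (limma without control 2). Over all tested rows, the 150 calls became 43 with the replicate block and 781 by DESeq2, and 79 to 186 when 1 library was left out. Among the latter were 95, 79 and 80 without knockout 2, 4 and 5, and 93, 80 and 94 without control 1, 2 and 3. Of the neighbours, 1 was called with a pseudocount of 50, by DESeq2 and without knockout 1 (range 0 to 1), HTR2C each time. The pairing by replicate number changed no call among members or neighbours. It was also applied to log2(sum + 1), as the mean difference over pairs 1 to 4, without knockout 5. This gave -1.01 for summed SNORD113 and SNORD114, 2.33 for SNORD115 and 0.18 for SNORD116. These values are not on the scale of the ratios of means (0.77, 0.92 and -0.00054), and libraries at 0 weigh heavily in them. In pair 3, summed SNORD115 had 121 normalized counts in the knockout library against 0 in the control library. Leaving out 1 library moved the log2 ratios of the means of these sums between -1.20 and 1.38, between 0.24 and 2.24, and between -0.26 and 0.68. Each moved by less than the pooled SD of log2(sum + 1), which was 3.51, 2.76 and 0.884. Libraries at 0 widen that SD for SNORD113 with SNORD114 and for SNORD115, so staying within it says little there.

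Signs changed only in values that passed no test. The 59-nucleotide SNORD115 row went to 0.070 and 0.18 with pseudocounts of 5 and 50, and to 0.76 by both edgeR and DESeq2. SNORD116-3 and SNORD116-9 each went to -0.19 with a pseudocount of 50, to -0.79 by edgeR and to -0.86 by DESeq2. Quantile normalization gave 0.10 for SNRPN, 0.12 for SNHG14, -0.084 for PWRN2, 0.12 for NOP58 and 0.018 for SNU13, and the replicate block gave -0.0097 for ATP10A. With 1 library left out, log2 fold changes ran from -1.42 to 1.23 for the 59-nucleotide SNORD115 row, -1.69 to 0.29 for SNORD115-23, -0.40 to 2.52 for SNORD116-3 and SNORD116-9, and -0.45 to 0.061 for SNORD116-18. They ran from -0.33 to 0.090 for NDN, -0.0036 to 0.41 for SNURF, -0.39 to 0.012 for SNRPN, -0.10 to 0.48 for PWRN1, -0.066 to 0.15 for UBE3A, -0.022 to 0.29 for ATP10A and -0.28 to 0.067 for SNU13. The causes were not tested. The members' values lie mostly within 1 to 4 steps for SNORD113 to SNORD115, which limits what could be detected.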
